A study of Mus musculus with 30 samples.

Results

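The Wnt genes described here were 109 probe sets of 52 genes on a pair of mouse expression arrays, MOE430A and MOE430B, out of 35041 probe sets with a single gene symbol (18193 genes). They were taken by a symbol pattern that uses no signals, but the set was chosen with earlier results of these data known. They comprised 19 Wnt ligand genes (32 probe sets), 10 Frizzled receptor genes (26), the co-receptors Lrp5 and Lrp6 (3), 9 secreted antagonists (16), the membrane antagonist Apcdd1 (6), 8 cytoplasmic transducers and regulators (20) and the nuclear factors Lef1 and Tcf7l1 (4). The symbol pattern also took in Fzd10os, a transcript annotated opposite Fzd10 (2 probe sets). Tcf7 was not analysed here.

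The arrays measured RNA from neurospheres, the floating clusters that neural precursors form in culture when a growth factor is supplied. Precursors were taken from mouse forebrain at embryonic day 14 and cultured over 7 days in DMEM:F12 medium carrying the supplements N2 and B27 (2%). Per the labels, 6 RNA samples came from spheres of the anterior entopeduncular area grown in PDGF-AA, and 3 from the same area with neurotrophin-3 (NT-3) added to PDGF-AA. The other 6 came from spheres of the medial and lateral ganglionic eminences grown in EGF, although the growth protocol attached to those samples names PDGF-AA. No source used here gives the strain, the number of embryos or whether replicates were separate cultures. The p-values therefore reflect only how much these samples varied, which may be technical. Factor and brain region differed together between EGF and PDGF-AA, so the effect of one cannot be told apart from that of the other. EGF and PDGF-AA samples shared 3 array processing runs, whereas no NT-3 sample shared a run with them, so run and NT-3 cannot be told apart. The labels also give RNA at 192, 287 and 171 ng/ul in the NT-3 samples and 100 ng/ul in every other sample. That difference cannot be told apart from NT-3 either.

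Wnt proteins are secreted, lipid-modified ligands that bind Frizzled receptors. With the co-receptors Lrp5 or Lrp6, a bound Frizzled recruits Dishevelled (Dvl) and Axin, which spares β-catenin (Ctnnb1) from the destruction complex and lets it act with Lef and Tcf factors on target genes such as the feedback inhibitors Axin2 and Nkd1. Other Wnts, Wnt5a among them, are best known for signalling without β-catenin, through planar polarity and calcium branches. In the embryonic forebrain, Wnt signals are known for patterning the dorsal telencephalon and for regulating precursor proliferation and the maturation of oligodendrocyte progenitors.

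For 4 genes that passed as higher in EGF than in PDGF-AA, the 250 bases upstream of an annotated start are shown, from RefSeq on GRCm38.p6, 5′ to 3′ on the strand of the gene. The windows are chr1:64737751-64738000 on the minus strand for Fzd5, chr6:91411354-91411603 on the minus strand for Wnt7a, chr5:4758217-4758466 on the minus strand for Fzd1 and chr8:88527383-88527632 on the plus strand for Nkd1. Capitals mark CTTTG or its reverse complement CAAAG, the core of the sequence that Lef and Tcf factors are known to bind.
Fzd5: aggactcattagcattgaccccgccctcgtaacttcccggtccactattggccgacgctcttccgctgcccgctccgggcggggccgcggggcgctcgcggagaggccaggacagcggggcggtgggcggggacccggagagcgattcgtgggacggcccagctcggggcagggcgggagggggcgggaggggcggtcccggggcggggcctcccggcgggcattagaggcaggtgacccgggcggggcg
Wnt7a: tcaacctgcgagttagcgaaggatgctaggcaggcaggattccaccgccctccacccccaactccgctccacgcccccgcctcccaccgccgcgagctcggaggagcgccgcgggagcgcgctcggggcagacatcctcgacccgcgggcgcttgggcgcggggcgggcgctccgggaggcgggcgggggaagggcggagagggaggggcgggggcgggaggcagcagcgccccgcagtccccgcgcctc
Fzd1: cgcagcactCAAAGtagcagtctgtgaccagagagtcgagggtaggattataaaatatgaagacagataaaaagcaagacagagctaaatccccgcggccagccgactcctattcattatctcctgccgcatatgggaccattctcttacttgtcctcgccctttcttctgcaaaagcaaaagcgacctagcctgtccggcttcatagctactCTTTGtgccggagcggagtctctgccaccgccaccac
Nkd1: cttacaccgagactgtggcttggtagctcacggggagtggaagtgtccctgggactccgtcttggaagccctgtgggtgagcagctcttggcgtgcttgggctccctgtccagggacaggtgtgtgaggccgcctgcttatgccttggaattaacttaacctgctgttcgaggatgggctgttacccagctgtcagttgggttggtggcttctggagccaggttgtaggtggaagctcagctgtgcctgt
Only the Fzd1 window held the core, at 241 and at 37 bases before the start. The core is common, being present in 48.6% of all 32851 windows of this length and in 19 of the 42 windows (45.2%) listed for 35 of the Wnt genes. The longer forms CTTTGAT and CTTTGAA, searched on both strands and each containing the core, were present in 7.48% of all windows and in 3 of those 42, upstream of Dkk1, Wnt11 and Wnt5b. By base composition the windows were 76.4% G or C for Fzd5, 77.6% for Wnt7a, 51.2% for Fzd1 and 58.4% for Nkd1.

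Signals are MAS5 values, a linear brightness in which every array had been scaled to a common trimmed mean. The median signal was 555 on MOE430A and 866 on MOE430B, and signals are compared only within a probe set, since brightness also depends on the probes. Differences are log2 differences after adding 52.0 on MOE430A and 115 on MOE430B, the 10th percentile of each chip, which understates the change of dim probe sets. Adjusted p-values come from limma's moderated test over all 35041 probe sets with Benjamini-Hochberg adjustment, and a probe set was called at 0.05. Ligands were mostly dim: 11 of the 19 Wnt genes had all their probe sets below the chip median in every condition mean. Among the receptors the same held for 1 of 10, Fzd8. Of the 109 probe sets, 63 reached the array median in at least 3 arrays and 55 stayed below the chip median in every condition mean, but all were tested.

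Across all genes the NT-3 samples stood apart. Pairs of samples correlated at a median of 0.899 inside PDGF-AA, 0.899 inside EGF and 0.847 inside NT-3, against 0.878 for PDGF-AA paired with EGF and 0.828 for PDGF-AA paired with NT-3. The log2 ratio of 3′ to 5′ signal of Actb, which rises with RNA degradation, had on MOE430A a median of 3.62 in NT-3 samples against 3.04 in PDGF-AA and 3.02 in EGF. Cell type markers also moved with the conditions. Their sums take the brightest probe set of each gene, so bright genes weigh most. The summed signal of 6 astrocyte markers was 104900 to 190500 in EGF samples, 17660 to 29850 in PDGF-AA and 16170 to 20690 in NT-3. Of the 6 genes, 4 passed as higher in EGF than in PDGF-AA, and 2 passed as higher and none as lower in NT-3 than in PDGF-AA. The summed signal of 6 oligodendrocyte progenitor markers was 51050 to 70090 in EGF samples, 96180 to 125200 in PDGF-AA and 144600 to 172700 in NT-3. Against PDGF-AA, 5 of these 6 passed as lower in EGF, and 3 as higher and 1 as lower in NT-3. The sum of 5 myelin markers was 12060 to 17240 in NT-3 samples, 38340 to 71240 in PDGF-AA and 44520 to 72940 in EGF. Against PDGF-AA, 4 of these 5 passed as lower in NT-3, and 1 as higher and 1 as lower in EGF. For 6 neural precursor markers the sum was 118600 to 143300 in NT-3 samples, 79720 to 103500 in PDGF-AA and 90380 to 127700 in EGF. Against PDGF-AA, 2 of these 6 passed as higher in EGF. In NT-3, 2 passed as higher, 1 as lower and 1 both ways. The sum of 6 neuronal markers was 28930 to 50850 in EGF samples, 38540 to 68070 in PDGF-AA and 37630 to 53340 in NT-3. Against PDGF-AA, 3 of these 6 genes passed as lower in EGF, and 4 as lower and 1 as higher in NT-3. Summed signals of 6 dorsal telencephalon markers were 3952 to 7586 in EGF, 1812 to 4710 in PDGF-AA and 2396 to 4708 in NT-3, and 1 of the 6, Emx2, passed as higher in EGF than in PDGF-AA and than in NT-3, with Tbr1 and Neurod6 below the chip median in every sample. Of 4 measured ventral forebrain markers none passed in any comparison and Nkx2-1 lay below the chip median in every sample. The part of cell composition and RNA quality in the results below was not tested, and in these bulk samples fewer cells of a type and less RNA per cell cannot be told apart.

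Receptors, ligands, an intracellular inhibitor and a secreted antagonist differed between the EGF and PDGF-AA samples. Of the 52 genes, 8 passed as higher in EGF (Fzd1, Fzd2, Fzd3, Fzd5, Wnt5a, Wnt7a, Nkd1 and Fzd10os) and 2 as lower (Wif1 and Wnt9a), where a gene passed if at least 1 of its probe sets did. Calls fell in 4 of 26 receptor, 4 of 32 ligand and 2 of 20 cytoplasmic probe sets, and a difference between roles was not tested. In probe sets this was 10 higher and 2 lower, 11.0% of 109 beside 6.54% of all probe sets called in that comparison. Higher calls were 3.48% and lower calls 3.06% of all probe sets, and genes called in any direction 10.2% of all genes. The median log2 difference of the Wnt probe sets was 0.17 and that of all probe sets -0.02. Receptors had a median of 0.46, with 19 of 26 probe sets above 0, against 0.04 for ligands and -0.05 for secreted antagonists. At an unadjusted p under 0.05 there were 26 of the 109, beside 16.6% of all. In 9 of the 109 probe sets the EGF and PDGF-AA samples did not overlap, against 5.20% of all probe sets.

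**Figure D1:**
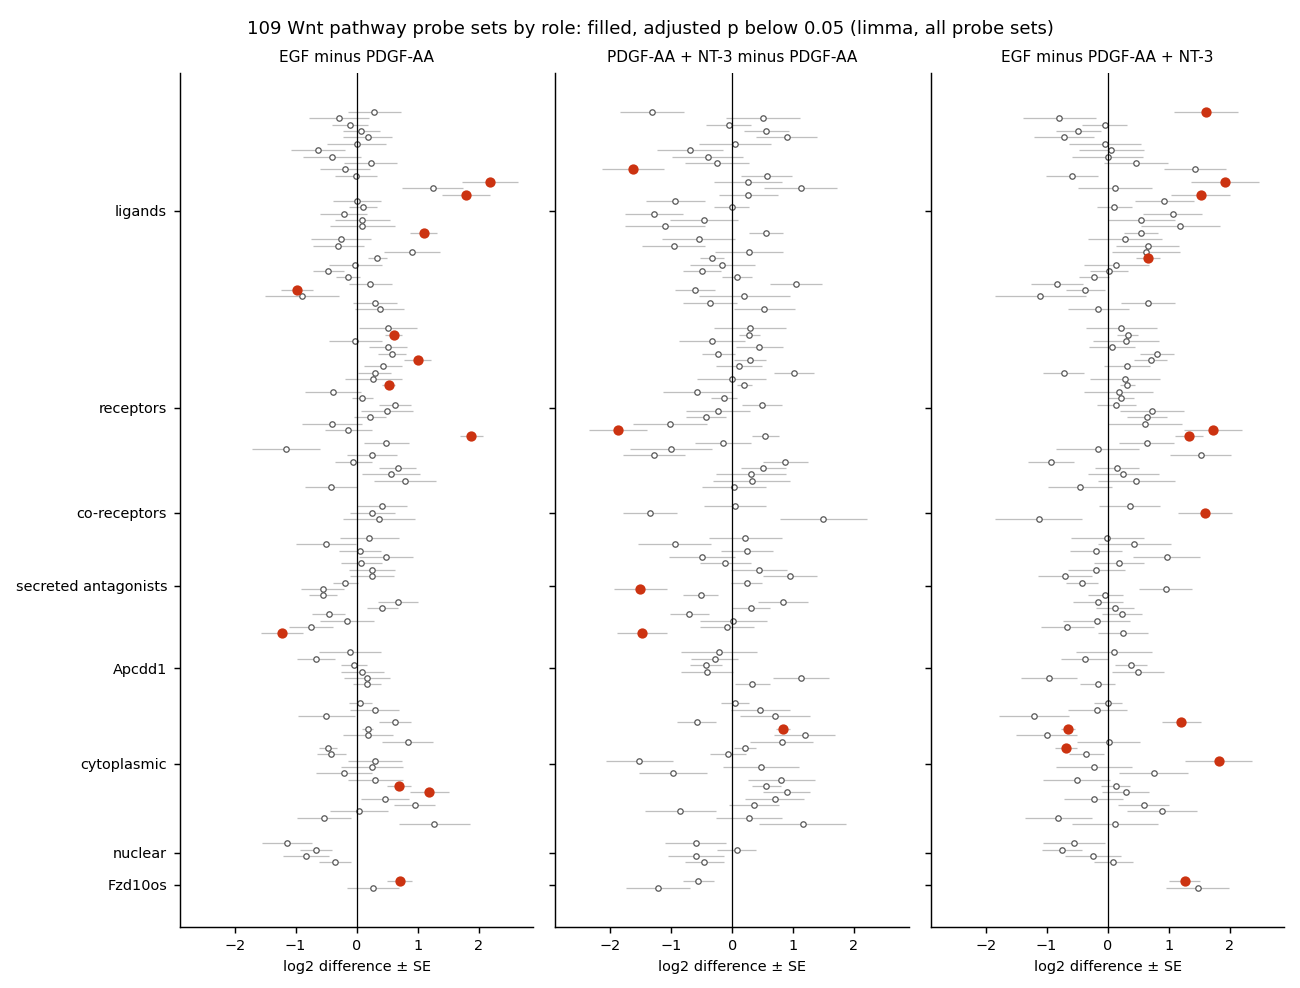
Each point is 1 of 109 probe sets, grouped by role on the vertical axis; the horizontal axis is the log2 difference with its standard error for the comparison named above each panel, and filled points have an adjusted p below 0.05. In the EGF minus PDGF-AA panel 4 receptor probe sets are filled and all lie above 0.

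Among the ligands, Wnt5a, a Wnt best known for signalling without β-catenin, was the member with the greatest EGF minus PDGF-AA difference. Its probe set 1436791_at gave 36.7 to 383 (median 181) in the PDGF-AA samples, 673 to 1186 (median 879) in the EGF samples, and 144, 66.1 and 583 in the NT-3 samples. Every EGF sample was thus brighter than every other sample, and the PDGF-AA and NT-3 samples overlapped. The log2 difference between EGF and PDGF-AA was 2.19 ± 0.455 (SE, n = 6 and 6; limma adjusted p = 0.0049), and between EGF and NT-3 1.92 ± 0.557 (adjusted p = 0.0278). A second probe set, 1448818_at, gave 112 to 423 (median 329) in PDGF-AA, 929 to 1317 (median 1153) in EGF, and 670, 81.5 and 655 in NT-3. It showed the same order, with differences of 1.79 ± 0.393 against PDGF-AA (limma adjusted p = 0.00762) and 1.52 ± 0.482 against NT-3 (adjusted p = 0.0422). NT-3 minus PDGF-AA was 0.27 ± 0.557 and 0.26 ± 0.482 in these probe sets and passed in neither. The remaining Wnt5a probe sets passed in no comparison: 1437673_at differed between EGF and PDGF-AA by 1.25 ± 0.494 and 1456976_at by 0.00 ± 0.396.

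Wnt7a, a ligand that stimulates precursor proliferation and angiogenesis in the developing brain, passed through 1 of 3 probe sets. Probe set 1423367_at gave 485 to 756 (median 592) in PDGF-AA, 1119 to 1574 (median 1292) in EGF, and 1239, 516 and 1053 in NT-3. All 6 EGF samples lay above all 6 PDGF-AA samples, while the NT-3 samples spread over both ranges. The EGF minus PDGF-AA difference was 1.10 ± 0.228 (limma adjusted p = 0.00492). The other Wnt7a probe sets had the opposite sign without passing, -0.26 ± 0.49 for 1447647_at and -0.30 ± 0.422 for 1458334_at. Wnt7b, its closest relative, averaged 2479 ± 370 (SD, n = 6) in PDGF-AA, 3187 ± 684 (n = 6) in EGF and 1969 ± 324 (n = 3) in NT-3 on 1420892_at. That was 0.34 ± 0.162 for EGF minus PDGF-AA, which did not pass, and 0.67 ± 0.198 for EGF minus NT-3 (limma adjusted p = 0.0316). Wnt9a on 1425889_at fell by 0.98 on the log2 scale in EGF against PDGF-AA (limma adjusted p = 0.0309), between dim signals of 108 to 274 and 40.3 to 99.6.

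Fzd5, the Frizzled known for its role in eye and vascular development, had the smallest adjusted p of the Wnt genes in the EGF and PDGF-AA comparison. Probe set 1455604_at gave 1097 to 1480 (median 1225) in PDGF-AA, 2937 to 6595 (median 5086) in EGF, and 2383, 1666 and 1671 in NT-3. The 3 conditions did not overlap, with PDGF-AA lowest, NT-3 between and EGF highest. EGF exceeded PDGF-AA by 1.88 ± 0.184 on the log2 scale, 3.69-fold (limma adjusted p = 2.81e-06), and NT-3 by 1.34 ± 0.226, 2.53-fold (adjusted p = 0.000687). NT-3 minus PDGF-AA was 0.54 ± 0.226 and did not pass (adjusted p = 0.122). A second Fzd5 probe set, 1422937_at, was dim, with every condition mean below the chip median, and did not repeat this order. It gave 133 to 837 (median 387) in PDGF-AA, 157 to 576 (median 368) in EGF, and 145, 44.8 and 42.3 in NT-3. Its EGF minus PDGF-AA difference was -0.14 ± 0.388, NT-3 was lower than PDGF-AA by -1.87 ± 0.475 (limma adjusted p = 0.0151), and EGF was higher than NT-3 by 1.73 ± 0.475 (adjusted p = 0.0206). Both probe sets therefore passed as higher in EGF than in NT-3, and they had opposite signs for NT-3 minus PDGF-AA.

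Fzd1, Fzd2 and Fzd3 were higher in EGF by smaller amounts. These were given in full after their values were seen, since their differences fell below 1 on the log2 scale. Fzd2 on 1418533_s_at gave 476 to 1032 (median 743) in PDGF-AA, 1224 to 1745 (median 1468) in EGF, and 685, 1258 and 827 in NT-3. The EGF and PDGF-AA samples did not overlap, and the difference was 0.9999 ± 0.221 (limma adjusted p = 0.00782). Fzd3, which with planar polarity proteins guides axon tracts, gave on 1434788_at 12863 to 17393 in PDGF-AA, 18982 to 23330 in EGF, and 20102, 14866 and 16475 in NT-3. It too separated EGF from PDGF-AA, by 0.52 ± 0.101 (limma adjusted p = 0.00268). Fzd1 on 1437284_at gave 2709 to 3983 (median 3253) in PDGF-AA, 3921 to 5760 (median 5427) in EGF, and 5084, 3700 and 3535 in NT-3. The lowest EGF sample lay below the highest PDGF-AA sample, and the difference was 0.61 ± 0.138 (limma adjusted p = 0.00931). No NT-3 comparison of these 3 probe sets passed. Fzd2 had 3 probe sets and Fzd1 a pair, all above 0 for EGF minus PDGF-AA. The 6 Fzd3 probe sets ranged from -0.39 to 0.63. Only 1 probe set of each gene passed. The other Fzd2 probe sets gave 0.58 ± 0.224 on 1418532_at and 0.43 ± 0.311 on 1418534_at. The suffix of the called one, 1418533_s_at, marks possible cross-hybridisation. No probe set of Fzd4, Fzd6, Fzd7, Fzd8, Fzd9 or Fzd10 passed in any comparison.

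**Figure D2:**
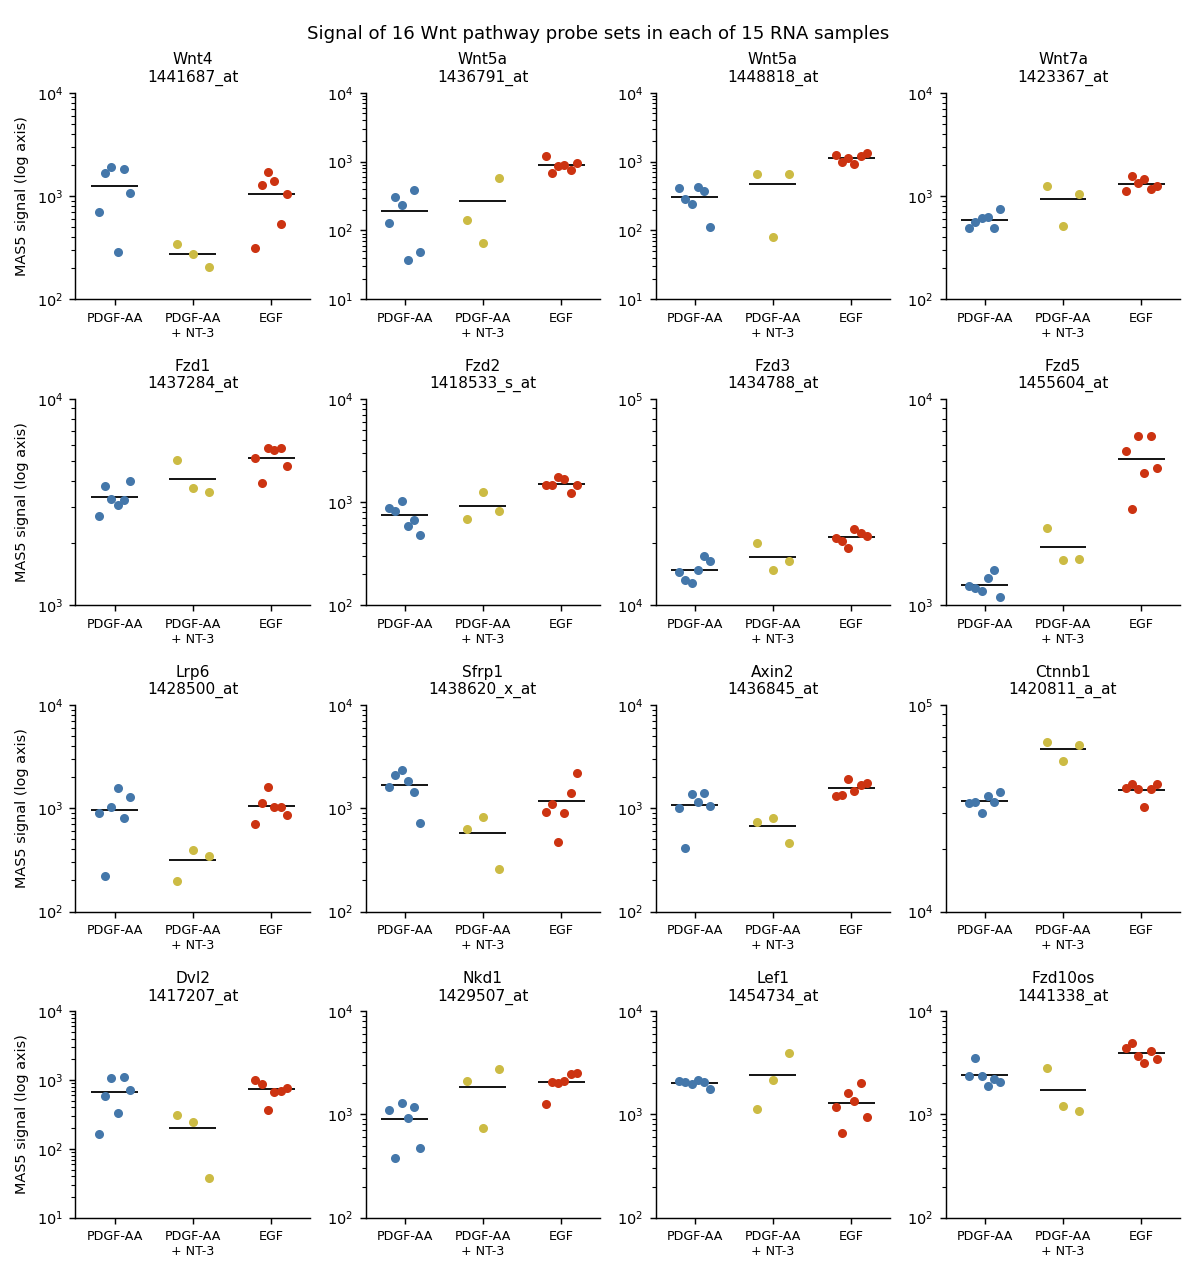
Each panel shows the MAS5 signal of 1 probe set on a log axis, with 1 point per RNA sample (6 PDGF-AA, 3 PDGF-AA with NT-3, 6 EGF) and a line at the mean. For Fzd5 1455604_at the 6 EGF samples lie between 2937 and 6595, above every other sample, and for Ctnnb1 1420811_a_at the 3 NT-3 samples lie between 53578 and 66070.

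Fzd10os on 1441338_at was highest in EGF. It gave 1902 to 3509 (median 2263) in PDGF-AA, 3141 to 4939 (median 3891) in EGF, and 2831, 1210 and 1076 in NT-3. EGF exceeded NT-3 by 1.27 ± 0.255 (limma adjusted p = 0.00277) with no overlap, and PDGF-AA by 0.71 ± 0.208, just inside the threshold (adjusted p = 0.0498), with overlap. Fzd10 itself, on the opposite strand, averaged 2855 in PDGF-AA, 3612 in EGF and 3559 in NT-3 on its brighter probe set 1455689_at and passed in no comparison.

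Nkd1, a Dishevelled-binding feedback inhibitor that is a common target of β-catenin, was higher in EGF than in PDGF-AA on 2 of 4 probe sets. Probe set 1429507_at gave 381 to 1301 (median 1021) in PDGF-AA, 1275 to 2530 (median 2081) in EGF, and 2103, 732 and 2742 in NT-3. The EGF and PDGF-AA ranges overlapped at 1 EGF sample, and the difference was 1.19 ± 0.315 (limma adjusted p = 0.0262). On 1429506_at the difference was 0.69 ± 0.194 (adjusted p = 0.0373), and all 4 probe sets lay above 0. Axin2, the scaffold of the destruction complex that is also induced by β-catenin, passed only against NT-3. Its probe set 1436845_at gave 414 to 1391 (median 1108) in PDGF-AA, 1305 to 1933 (median 1574) in EGF, and 737, 810 and 460 in NT-3. The EGF samples lay above all NT-3 samples, by 1.20 ± 0.32 (limma adjusted p = 0.0173), while EGF minus PDGF-AA was 0.62 ± 0.261 (adjusted p = 0.215). The second Axin2 probe set, 1421341_at, was dim and had the opposite sign, -1.20 ± 0.572 for EGF minus NT-3 (adjusted p = 0.178).

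Lef1 and Tcf7l1, nuclear factors that bind β-catenin, passed in no comparison. All 4 of their probe sets lay below 0 for EGF minus PDGF-AA, from -0.36 to -1.15, and 3 had an unadjusted p under 0.05. Lef1 on 1454734_at gave 1771 to 2146 (median 2059) in PDGF-AA, 655 to 2000 (median 1265) in EGF, and 1118, 2160 and 3932 in NT-3. EGF minus PDGF-AA was -0.67 ± 0.263 (limma adjusted p = 0.174), with overlapping ranges. On 1421299_a_at, where signals were dim, Lef1 differed by -1.15 ± 0.411 (adjusted p = 0.124).

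Ctnnb1, which encodes β-catenin, was the Wnt gene with the smallest adjusted p in the comparison of NT-3 with PDGF-AA. Its bright probe set 1420811_a_at gave 30079 to 37902 (median 33818) in PDGF-AA, 32004 to 41644 (median 39389) in EGF, and 66070, 53578 and 63718 in NT-3. All 3 NT-3 samples lay above all 12 others. NT-3 minus PDGF-AA was 0.83 ± 0.112, 1.78-fold (limma adjusted p = 0.000181), and EGF minus NT-3 was -0.65 ± 0.112 (adjusted p = 0.000801). Under quantile normalization the former was 0.48 (adjusted p = 0.00263) and the latter -0.32 (adjusted p = 0.0278). The 2 other Ctnnb1 probe sets were far dimmer and did not pass, at 1.19 ± 0.503 and 0.82 ± 0.516 for NT-3 minus PDGF-AA.

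Besides Ctnnb1, the comparison of NT-3 with PDGF-AA called 4 probe sets, all lower in NT-3, in Fzd5, Sfrp1, Wnt4 and Wif1. The 5 calls were 4.59% of the Wnt probe sets beside 13.1% of all probe sets, and 5 of 52 genes (9.62%) beside 21.8% of all genes. Lower calls were 7.50% and higher calls 5.63% of all probe sets, and 22 of the 109 had an unadjusted p under 0.05, beside 27.9% of all. The median difference was 0.03, against -0.02 over all probe sets. Wnt4, a ligand known from kidney and reproductive tract development, gave on 1441687_at 288 to 1913 (median 1375) in PDGF-AA, 315 to 1704 (median 1155) in EGF, and 339, 272 and 204 in NT-3. The NT-3 samples sat at the low end of a wide PDGF-AA range, and the difference was -1.62 ± 0.508 (limma adjusted p = 0.0424). The other Wnt4 probe set, 1450782_at, was dim and had the opposite sign, 0.57 ± 0.423 (adjusted p = 0.415). Sfrp1, a secreted protein that binds Wnts, gave on 1438620_x_at 716 to 2359 (median 1727) in PDGF-AA, 474 to 2219 (median 1009) in EGF, and 636, 828 and 259 in NT-3. The ranges overlapped, and NT-3 minus PDGF-AA was -1.51 ± 0.435 (limma adjusted p = 0.0293). The suffix of that probe set marks possible cross-hybridisation, and the 4 other Sfrp1 probe sets ranged from -0.51 to 0.95 without a call. Wif1, another Wnt-binding antagonist, was dim throughout, at 93.4 to 269 in PDGF-AA, 5.18 to 160 in EGF, and 15.8, 75.6 and 19.9 in NT-3. It was lower than in PDGF-AA in both other conditions, by -1.48 ± 0.416 in NT-3 (limma adjusted p = 0.0261) and -1.23 ± 0.34 in EGF (adjusted p = 0.0358). No Dkk gene, no other Sfrp gene and no probe set of Apcdd1, a membrane inhibitor of Wnt receptors, passed in any comparison.

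The comparison of EGF with NT-3 shares its samples with the other comparisons, and its calls are given as values of the same fit. It called 12 Wnt probe sets, 10 higher and 2 lower in EGF, 11.0% beside 14.0% of all probe sets, and 10 of 52 genes (19.2%) beside 22.7% of all genes. Higher calls were 7.91% and lower calls 6.11% of all probe sets. At an unadjusted p under 0.05 there were 24 of the 109, beside 28.0% of all, and in 14 the samples did not overlap, beside 16.1% of all. Lrp6, the main Wnt co-receptor, gave on 1428500_at 222 to 1580 (median 967) in PDGF-AA, 704 to 1597 (median 1030) in EGF, and 199, 396 and 345 in NT-3. Every EGF sample exceeded every NT-3 sample, by 1.60 ± 0.445 (limma adjusted p = 0.0222). The other Lrp6 probe set, 1451022_at, averaged 295 in EGF and 626 in NT-3. It had the opposite sign without passing, -1.13 ± 0.716 (adjusted p = 0.326). Dvl2, a Dishevelled protein that relays the receptor signal, gave on 1417207_at 163 to 1121 (median 649) in PDGF-AA, 365 to 1005 (median 729) in EGF, and 314, 244 and 37.3 in NT-3. EGF and NT-3 did not overlap and differed by 1.82 ± 0.544 (limma adjusted p = 0.0324), or by 1.19 without NT-3 replicate 3. The dim Dvl2 probe set 1448616_at had the opposite sign, -0.22 ± 0.622 (adjusted p = 0.858). Dvl1 on 1437301_a_at differed the other way, by -0.68 ± 0.176 (adjusted p = 0.0149), between means of 2900 ± 646 (SD, n = 6) in EGF and 4596 ± 359 (n = 3) in NT-3. Wnt1 was dim in all conditions and differed by 1.61 ± 0.525 (adjusted p = 0.0488).

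**Figure D3:**
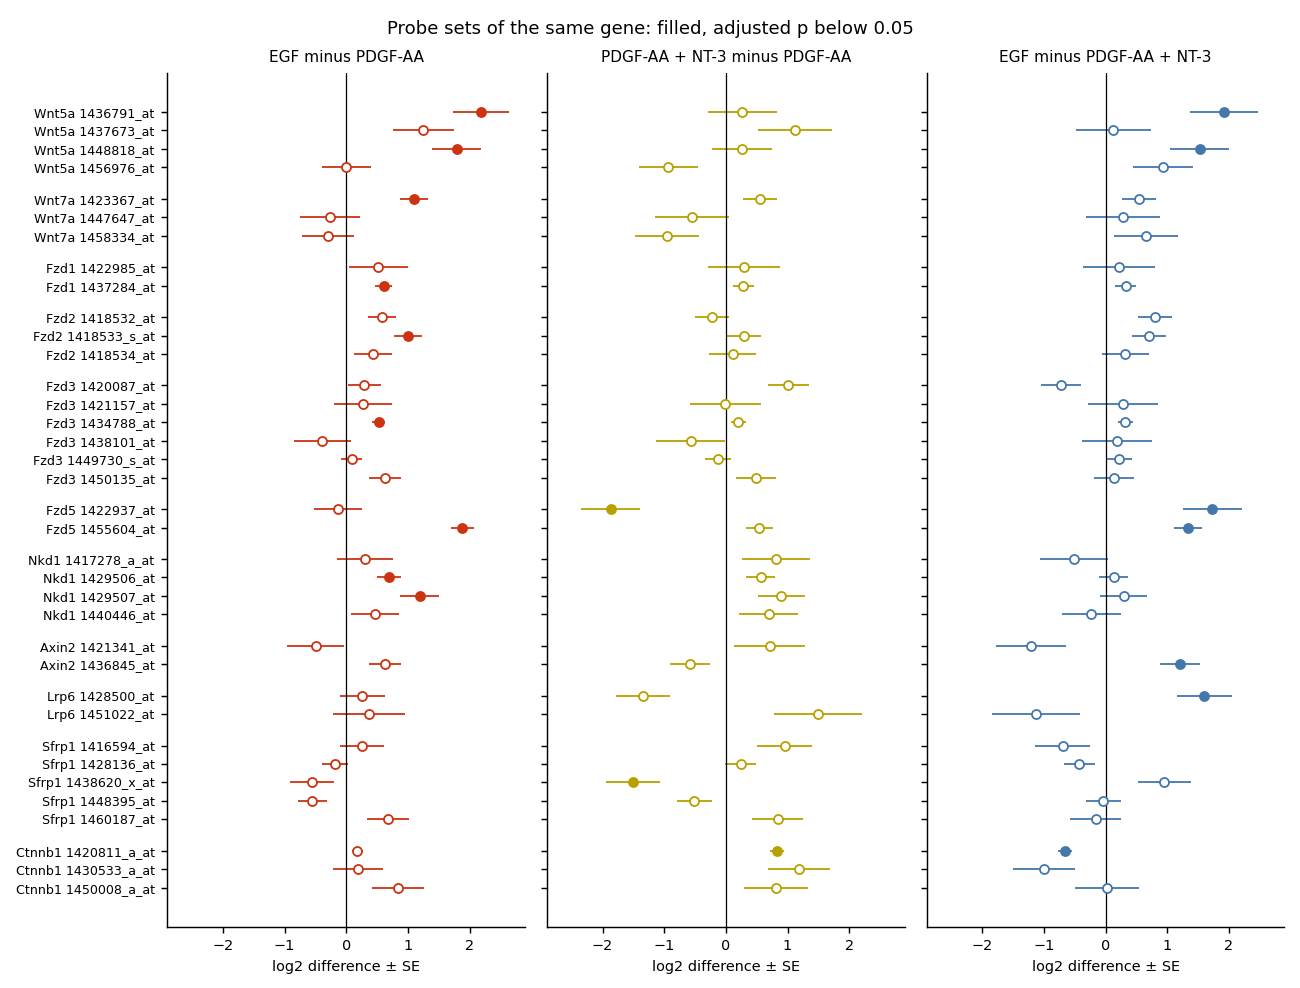
Log2 differences with standard errors of every probe set of 11 genes, in the comparison named above each panel, with filled points at an adjusted p below 0.05. Fzd5 has probe sets at -1.87 and 0.54 in the NT-3 panel, and the 3 Wnt7a probe sets lie at 1.10, -0.26 and -0.30 in the EGF minus PDGF-AA panel.

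The calls differed in how far they rested on single samples. With each sample left out in turn, 7 of the 12 EGF minus PDGF-AA calls passed in all 12 fits, namely both Wnt5a probe sets, Wnt7a, Fzd1, Fzd2, Fzd3 and Fzd5. Within the 3 shared processing runs, each with 2 samples a condition, Fzd5 1455604_at differed by 1.64 to 2.02, Wnt5a 1436791_at by 1.91 to 2.54, Wnt5a 1448818_at by 1.51 to 2.31, Wnt7a by 0.93 to 1.26, Fzd2 by 0.75 to 1.18, Fzd1 by 0.48 to 0.84 and Fzd3 by 0.38 to 0.61. The Nkd1 1429507_at call was lost on removing EGF replicate 3, 5 or 6 or PDGF-AA replicate 2 or 6 (limma adjusted p = 0.0507 to 0.0657). The Nkd1 1429506_at call was lost without EGF replicate 2, 3, 5 or 6 or PDGF-AA replicate 1, 4, 5 or 6 (adjusted p = 0.0572 to 0.0968), and that of Fzd10os without any sample but PDGF-AA replicate 2 and EGF replicate 4 (adjusted p = 0.0641 to 0.115). Wnt9a lost its call without EGF replicate 1, 3, 4 or 6 or PDGF-AA replicate 1, 3, 5 or 6 (adjusted p = 0.0576 to 0.0733), and Wif1 without EGF replicate 1, 3, 5 or 6 or PDGF-AA replicate 1, 2, 3 or 5 (adjusted p = 0.0535 to 0.096). With the processing run as a block, fitted for each chip alone on the EGF and PDGF-AA samples, the Nkd1 1429506_at call was lost (adjusted p = 0.0538). It was also lost with each chip alone and no block (adjusted p = 0.0889), as was that of Fzd10os (adjusted p = 0.0879). Median centring and quantile normalization ended the calls of Wnt9a (adjusted p = 0.0591 and 0.0521) and Fzd10os (adjusted p = 0.0711 and 0.0556).

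Of the 5 NT-3 minus PDGF-AA calls, that of Ctnnb1 passed in all 9 such fits. The call of Fzd5 1422937_at was lost without NT-3 replicate 2 or 3 (limma adjusted p = 0.0554 and 0.0636), and that of Wif1 without NT-3 replicate 1 or 3 (adjusted p = 0.0984 and 0.0921). Sfrp1 lost it without PDGF-AA replicate 2, 3 or 4 or NT-3 replicate 1 or 3 (adjusted p = 0.0515 to 0.161), and Wnt4 without PDGF-AA replicate 2, 3, 5 or 6 or any NT-3 replicate (adjusted p = 0.0599 to 0.126). Of the 12 EGF minus NT-3 calls, those of Ctnnb1, Fzd5 1455604_at and Fzd10os passed in all 9 fits. Lrp6 and Dvl1 lost theirs without NT-3 replicate 1 (adjusted p = 0.0981 and 0.0599), Axin2 without NT-3 replicate 3 (adjusted p = 0.0867), and Fzd5 1422937_at without NT-3 replicate 2 or 3 (adjusted p = 0.0784 and 0.0801). Dvl2 lost it without EGF replicate 1, 2 or 6 or NT-3 replicate 3 (adjusted p = 0.0515 to 0.187), and Wnt5a 1436791_at without EGF replicate 1 or NT-3 replicate 1 or 2 (adjusted p = 0.0512 to 0.154). Wnt5a 1448818_at lost it without any EGF replicate or NT-3 replicate 2 (adjusted p = 0.0524 to 0.273), where the difference was 0.72 without the last. Wnt7b lost it without EGF replicate 1, 2 or 6 or NT-3 replicate 1 or 2 (adjusted p = 0.0507 to 0.14), and Wnt1 without EGF replicate 3, 4 or 6 or NT-3 replicate 2 or 3 (adjusted p = 0.0762 to 0.162).

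**Figure D4:**
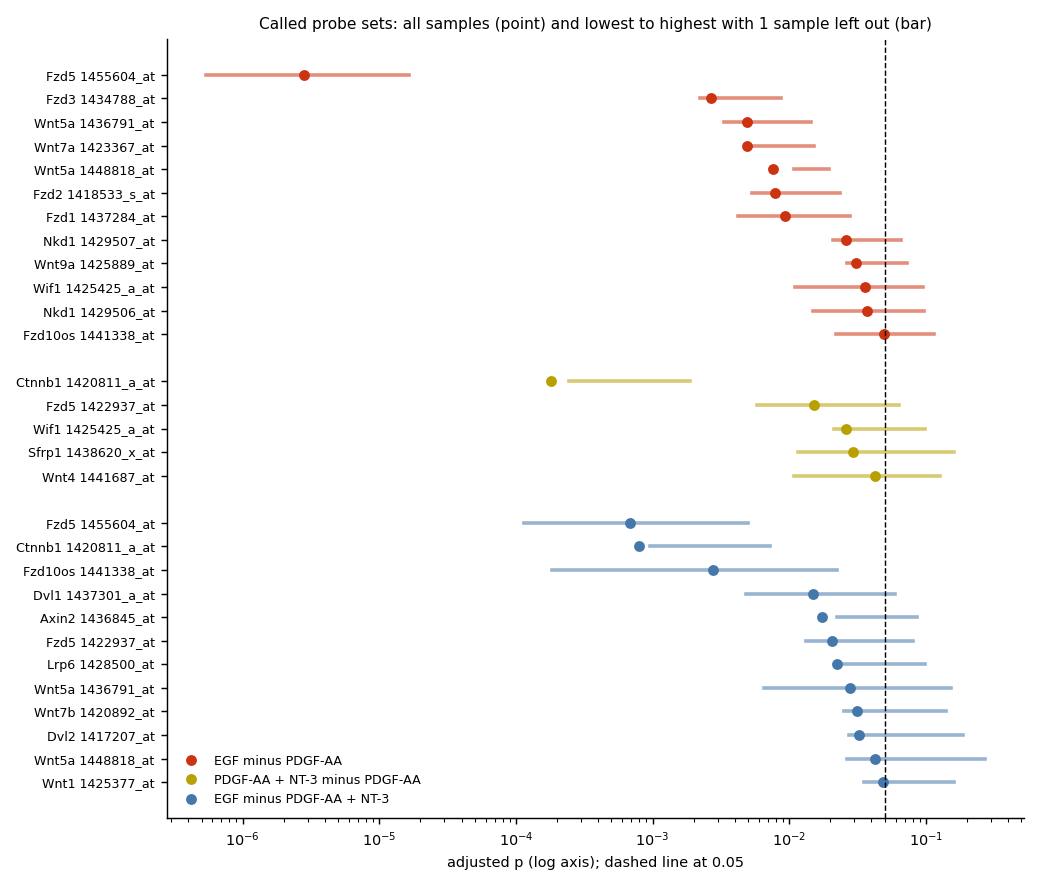
For each called probe set the point is the adjusted p with all samples and the bar spans the lowest to the highest adjusted p with 1 sample left out, on a log axis with a dashed line at 0.05. The bar of Fzd5 1455604_at for EGF minus PDGF-AA ends at 1.64e-05 and that of Ctnnb1 for NT-3 minus PDGF-AA at 0.00188.

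A wider list of 99 Wnt pathway genes outside the 52, of which 96 were measured, was read from the same fit. Between EGF and PDGF-AA 10 genes were higher and 6 lower, beside 5.31% of all genes higher and 4.88% lower. Among 18 further target genes 4 were higher (Ccnd1, Ccnd2, Cd44 and Znrf3) and 2 lower (Jun and Id2). Ccnd2, which encodes the G1 cyclin D2, passed on 6 of 7 probe sets, with log2 differences of 1.73 to 1.86. On its probe set 1416122_at the mean rose from 9577 in PDGF-AA to 33012 in EGF (1.79 ± 0.134, limma adjusted p = 1.35e-07). Znrf3, a ubiquitin ligase that removes Frizzleds from the cell surface, was higher by 0.94 ± 0.236 on 1435608_at (adjusted p = 0.0193). Its other probe set, 1437646_at, differed by 0.03 ± 0.292 and did not pass. Among 14 other receptors and co-receptors 3 were higher and none lower, namely Ryk, Ror2 and Znrf3. Ryk, a receptor for Wnt5a among other Wnts, averaged 329 in PDGF-AA, 1482 in EGF and 1170 in NT-3 on 1451789_a_at, a difference of 2.17 ± 0.335 for EGF minus PDGF-AA (adjusted p = 0.000359), while its brighter probe set 1426388_s_at differed by 0.56 ± 0.197 and did not pass. Ror2, another Wnt5a receptor, was higher by 1.11 ± 0.292 on 1423428_at (adjusted p = 0.0251) between dim signals. Its other probe set, 1457128_at, had the opposite sign without passing, -0.31 ± 0.394. Gpc4, a glypican of the cell surface, was the 1 of 16 secretion and extracellular genes called. It was higher by 1.12 ± 0.179 on 1421088_at (adjusted p = 0.000527), while 1436514_at differed by 0.81 ± 0.39 without passing. Of 22 destruction complex and cytoplasmic genes 1 was higher and 3 lower. Among the latter, Dixdc1, a Dishevelled-related protein, was lower by -1.08 ± 0.193 on 1435207_at (adjusted p = 0.00141). Its other probe sets ranged from -0.47 to 0.12 and did not pass. Of 17 nuclear factors 1 was lower, Nlk, a kinase that acts on Tcf and Lef factors, by -0.82 ± 0.168 on 1419112_at (adjusted p = 0.0043). In the planar polarity branch 2 of 14 were higher, Rhoa by 0.52 ± 0.112 (adjusted p = 0.00601) and Daam2 by 0.97 ± 0.252 (adjusted p = 0.0233).

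Between NT-3 and PDGF-AA 12 of the 96 genes were higher, 13 lower and 1 called both ways by different probe sets, beside 8.81%, 12.2% and 0.852% of all genes. In the planar polarity branch 4 of 14 were lower and 2 higher in NT-3. The membrane protein Vangl2, a core component of that branch, was lower by -0.86 ± 0.207 on 1436118_at (limma adjusted p = 0.0113), and Rhoa by -0.65 ± 0.137 (adjusted p = 0.00509). Gsk3b, the kinase that marks β-catenin for destruction, was lower by -0.60 ± 0.136 on 1437001_at (adjusted p = 0.00767), whereas its 5 other probe sets did not pass. Draxin, a secreted axon guidance protein that inhibits Wnt signalling, was lower by -1.41 ± 0.338 on 1456158_at (adjusted p = 0.0107). The other Draxin probe set, 1432152_at, had the opposite sign without passing, 0.47 ± 0.56. Among the genes higher in NT-3 were Sostdc1 by 1.81 ± 0.335 on dim 1449340_at (adjusted p = 0.00211) and Nlk by 1.37 ± 0.266 on 1456467_s_at (adjusted p = 0.00292). Ryk 1451789_a_at and Ror2 1423428_at also passed as higher, by 1.85 ± 0.411 and 1.30 ± 0.357 (adjusted p = 0.00685 and 0.0233). The other probe sets of Sostdc1, Ryk and Ror2 did not pass. Nlk also passed on 1419112_at, by 0.66 ± 0.205 (limma adjusted p = 0.0416), while 1435970_at differed by -0.17 ± 0.181 without passing. The suffix of Nlk 1456467_s_at marks possible cross-hybridisation. Ccnd2 passed as higher in NT-3 on 4 of 7 probe sets, by 0.74 to 1.97, while 1448229_s_at differed by -0.39 ± 0.234 without passing. Between EGF and NT-3 17 genes were higher in EGF, 10 lower and 2 called both ways, beside 12.5%, 9.47% and 0.737% of all genes.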

How the data were processed

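Deposited MOE430A and MOE430B tables from 15 RNA samples (30 arrays) were used. Their values are linear MAS5 intensities, per the submitters' processing notes. The authors' arrays share a trimmed mean of about 1500 on each chip, which was checked on the values, and no further scaling was applied. Absolute detection limits were not used, and the number of samples limits the precision. Per the file headers, arrays were processed in fluidics runs, used here as batches. Probe sets were named from the platform annotation, updated through RefSeq gene identifiers (34837 of 35041 matched).

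Intensities were set to log2 after adding the 10th percentile of each chip. Both chips were stacked by RNA sample and fitted over all 3 conditions by lmFit, a contrast step and eBayes with trend (limma 3.58.1, R 4.3.3). Tests are two-sided with Benjamini-Hochberg adjustment over 35041 probe sets, without a filter on signal. The fit was tested on simulated data. No pair of samples held identical values. Values of every sample are given for probe sets with an adjusted p below 0.05, a log2 difference of at least 1 and a mean in the higher condition at or above the chip median, and for Fzd1, Fzd2, Fzd3, Ctnnb1 and Lef1. The genes, the wider pathway list and the marker lists were chosen with earlier results of these data known. Replicate numbers were not used as pairs. Alternatives covered the added value, filters, scaling, sample weights, runs, a replicate block and left-out samples.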

Additional observations from a re-analysis of the deposited data

Results flagged for a closer look

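In 5 of 44 groups of 6 samples examined among the called Wnt probe sets, 1 sample lay far from the others on the log2 scale, and chance gives about 1 in 20. PDGF-AA replicate 2 was the outlying sample in 3 of them. Lrp6 1428500_at was 222 in that sample, with the next lowest PDGF-AA sample at 807. Axin2 1436845_at was 414 there, with the next at 1002. Fzd10os 1441338_at was 3509 there, above the next highest at 2357. Ctnnb1 1420811_a_at was 32004 in EGF replicate 4, below the next EGF sample at 39078. Nkd1 1429507_at was 1275 in EGF replicate 1, below the next at 2028. Without EGF replicate 4 the Ctnnb1 call of EGF minus NT-3 was kept, and the Nkd1 call of EGF minus PDGF-AA was kept without EGF replicate 1.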

How the results depend on the processing

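For single called Wnt probe sets, 491 of the values under the alternatives kept their direction and their side of the threshold, 169 kept the direction and no longer passed, and none reversed. The EGF minus PDGF-AA count of 12 was 6 with the signal filter and 1 probe set per gene (37 genes tested), and 7 to 11 with 1 sample left out. Within the runs of replicates 1 and 2, 3 and 4, and 5 and 6 it was 0, 0 and 0 with limma (14, 20 and 15 at an unadjusted p under 0.05), where 17, 43 and 157 of all probe sets were called and each condition had 2 samples. The NT-3 minus PDGF-AA count of 5 was 1 with array weights (2510 of all called, against 4600), and 3 to 8 with 1 sample left out. Under median centring it was 2 higher and 4 lower. The EGF minus NT-3 count of 12 was 5 with array weights (2916 of all called, against 4915), and 8 to 12 with 1 sample left out. With 1 probe set per gene and the filter, all calls were 2943 and 3119 in these NT-3 comparisons. With the replicate number as a block the counts were 11 for EGF minus PDGF-AA, 0 for NT-3 minus PDGF-AA and 0 for EGF minus NT-3 (29, 10 and 14 at an unadjusted p under 0.05 in limma), and all calls were 2596, 36 and 589. In these fits the NT-3 differences rested on replicates 1 to 3, the only numbers NT-3 shares with the other conditions. The EGF minus PDGF-AA calls of Wif1 (adjusted p = 0.0749) and Wnt9a (0.0585) did not pass under that block. Same-numbered samples shared little deviation (correlations of -0.020 to 0.068), below the 0.1 set for pairing. Of the 6 EGF samples 5 correlated best with the PDGF-AA sample of the same number, a hint from the data and not the design, and those pairs shared a fluidics run. The pseudocount at the 25th percentile moved the differences of dim Wif1, Wnt9a, Wnt1 and Fzd5 1422937_at by over 1.5 times. Within runs, the Nkd1 1429506_at difference was 0.41, 0.44 and 1.24. The cause of these changes was not tested beyond the fewer samples or genes in a fit. Dim signals limit most of the ligands.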
